A study of Mus musculus with 12 samples.

Results

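The Myc window is the stretch chr15:61800000-63700000 of the mouse build mm9, which holds Myc (plus strand, with its start and end rounded to 61817000 and 61822000) and 1900 kb in all, nearly all of it downstream of the gene. Every DNase-seq peak of the series that overlaps these coordinates was taken, with no use of its strength. That gave 797 of the 1600000 listed peaks, 596 in the 12 lists of single libraries and 201 in the 4 lists that the authors made from pooled replicates. Merging the peaks of the 12 lists where they share at least 1 bp gave 161 regions in the window, of 265371 on the 19 autosomes and X. Of the 161 regions, 58 had a peak in at least 3 lists, as did 103666 of all regions, and only those entered tests across regions. The other 103 were seen in 1 list (77 regions) or 2 lists (26 regions).

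DNase-seq maps stretches of open chromatin by where DNase I cuts. The series has 2 mouse erythroid lines of strain 129 origin, each asynchronous and mitotic, with 3 libraries in each of the 4 groups. All G1E libraries come from cells in which GATA1, the master transcription factor of red cell maturation, is disrupted. All G1E-ER4 libraries come from the derived line that carries GATA1 fused to the estrogen receptor's ligand-binding domain, and all of these cells, asynchronous and mitotic, had 100 nM estradiol for 22 h. Mitotic cells of both lines had nocodazole at 200 ng/ml for 7 h and were sorted for histone H3 phosphorylated at serine 10, while asynchronous cells had neither. Mitosis, nocodazole and the sort therefore cannot be told apart, nor can restored GATA1 activity, estradiol and the line. The labels give the surface markers Ter119-CD71- and Ter119-CD71+ for G1E and Ter119+CD71+ for G1E-ER4, so the lines also differ in these labelled markers. Each is a single line, and the labels do not say that replicates were separate cultures, so p-values measure only the spread between these libraries.

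Myc is a basic helix-loop-helix transcription factor that drives growth and proliferation, and GATA1 is known to repress it as erythroid precursors mature. The non-coding gene Pvt1 lies next to Myc on the downstream side, and beyond it stretches a long interval with few protein-coding genes. Distant downstream enhancers in this interval, among them a cluster active in blood stem and progenitor cells, are known to act on Myc. In the RefSeq gene order for this chromosome (assembly GRCm38.p6, used for order only) Pvt1 is the next gene after Myc, followed by non-coding genes and pseudogenes until Gsdmc and its relatives, the next protein-coding genes.

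Every list holds the 100000 peaks with the highest signal of its library. The signal is the authors' peak value, and it served here only to order the peaks of one list, with rank 1 the highest. A region's rank in a list is that of its best peak there, and a region without a listed peak is below rank 100000 in that list, not shown to be closed. The peaks carry running numbers with gaps, which were read as peaks left out below the limit, although the sources used here do not say so. On that reading each library had 273095 to 586668 peaks. Between the first and last listed peak of the window, 206 to 267 peaks were numbered in the asynchronous G1E libraries, 150 to 210 in mitotic G1E, 221 to 304 in asynchronous G1E-ER4 and 188 to 272 in mitotic G1E-ER4. Of the 325 cases in which a region of the 58 lacked a listed peak in a list, 320 had at least 1 numbered but unlisted peak somewhere between the listed neighbours. Read depth is unknown.

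Asynchronous G1E cells had by far the most listed peaks in the Myc window. Their lists held 83, 94 and 84 peaks (mean 87.0 ± 6.08, SD, n = 3), and the mitotic G1E lists held 32, 29 and 38 (33.0 ± 4.58, SD, n = 3). Asynchronous G1E-ER4 lists held 45, 40 and 58 peaks (47.7 ± 9.29, SD, n = 3), and mitotic G1E-ER4 lists held 25, 37 and 31 (31.0 ± 6.0, SD, n = 3). In each line every asynchronous list was above every mitotic list. The authors' pooled lists held 83, 39, 48 and 31 peaks in the same order of groups.

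Across both lines, the mean number of window peaks differed by -35.3 between mitotic and asynchronous lists (two-sided exact permutation test, p = 0.005, the smallest that 400 arrangements allow). The difference was -54.0 peaks in G1E and -16.7 in G1E-ER4, each with exact p = 0.1, the smallest that 3 against 3 libraries allow. Between G1E-ER4 and G1E lists the difference over both stages was -20.7 peaks (two-sided exact permutation p = 0.035). That difference was -39.3 between the asynchronous groups (exact p = 0.1) and -2.0 between the mitotic groups (exact p = 0.7). The line difference rose above the threshold of 0.05 with a replicate block, in which labels change places only within a replicate number (exact p = 0.125), and it reached p = 0.05 without asynchronous G1E replicate 2, 0.06 without mitotic G1E replicate 3 and 0.065 without mitotic G1E-ER4 replicate 1. Whether the stage difference itself differed between the lines was not resolved (37.3 peaks, exact permutation p = 0.07).

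The excess in asynchronous G1E was not shared by chromosome 15 as a whole, where those lists held fewer peaks (2737 to 3154) than the other 9 (3247 to 4181). Window peaks made up 2.63% to 3.43% of the chromosome 15 peaks in asynchronous G1E and 0.667% to 1.57% in the other lists. The asynchronous G1E lists kept 31.1% to 45.6% of the peaks numbered in the window, against 9.96% to 26.2% in the others. Over the whole genome the corresponding shares were 22.4% to 36.6% and 17.0% to 23.7%, so 2 of the 3 asynchronous G1E lists also kept more of their peaks everywhere. The part that this played in the window was not tested.

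**Figure D1:**
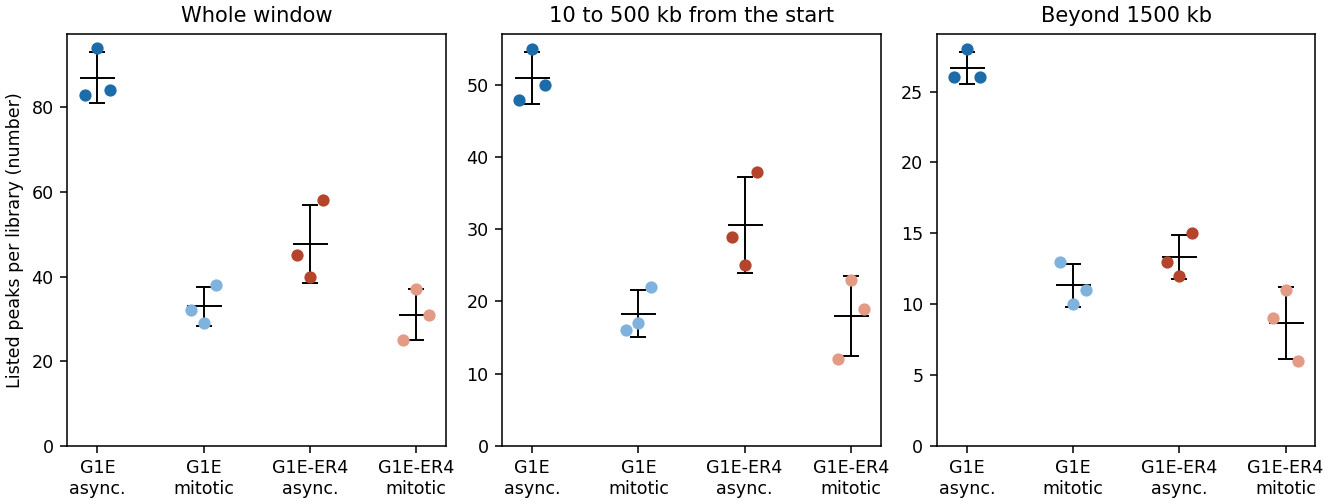
Listed peaks per library (vertical axis, number) in the whole window, from 10 to 500 kb from the Myc start, and beyond 1500 kb. Points are libraries, bars are the mean and SD of 3 libraries, and the 3 asynchronous G1E libraries (83 to 94 peaks in the whole window) lie above all others in each panel.

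Peaks gathered in 2 stretches separated by an almost empty interval. The interval up to 500 kb from the start, outside the 10 kb around the gene, held 100 regions, of which 32 were in at least 3 lists. The last stretch, beyond 1500 kb, held 49 regions, 22 of them in at least 3 lists. Between 500 and 1500 kb there were 10 regions, and 2 of these were in at least 3 lists, at +951.0 and +1302.0 kb (both named here after their values were seen). Peaks up to 500 kb numbered 48, 55 and 50 in asynchronous G1E, 16, 17 and 22 in mitotic G1E, 29, 25 and 38 in asynchronous G1E-ER4, and 12, 23 and 19 in mitotic G1E-ER4. Beyond 1500 kb there were 26, 28 and 26, then 13, 10 and 11, then 13, 12 and 15, then 9, 11 and 6 in the same order. In both stretches asynchronous G1E stood above the other 3 groups with no overlap.

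**Figure D2:**
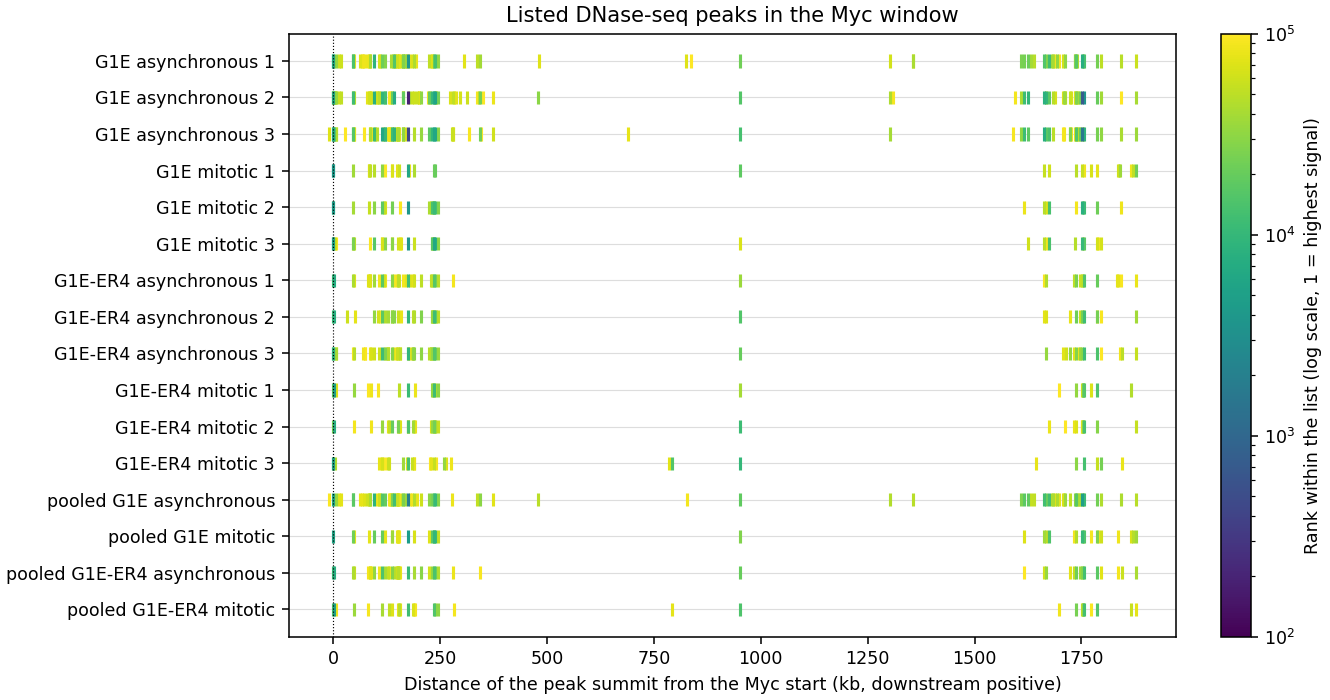
Summit of every listed peak in the window by its distance from the Myc start (horizontal axis, kb, downstream positive) in the 12 libraries and the 4 pooled lists (rows), coloured by rank within the list on a log scale. Peaks crowd from the start to about 250 kb and again beyond 1500 kb, and both crowds are densest in the asynchronous G1E rows.

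The Myc promoter was open in every library. The promoter region, chr15:61814518-61821732 (7215 bp), runs from upstream of the gene to near its end and was found in all 12 lists, one of 6 window regions of 58 with that support (10.3%, against 15.7% of all regions tested). Its best rank was 7231, 7082 and 7091 in asynchronous G1E, and 4286, 4498 and 6085 in mitotic G1E. In G1E-ER4 it was 7200, 7731 and 8836 in asynchronous cells and 4744, 7507 and 6100 in mitotic cells. Every library thus placed it among its 8836 highest peaks, and in G1E all mitotic libraries placed it higher than all asynchronous ones, while in G1E-ER4 the groups overlapped.

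The promoter region was placed higher in mitotic than in asynchronous lists, with a rank 0.723 times as large on average (log2 rank difference -0.47, exact permutation test, two-sided, p = 0.01). This is the best rank of the region, and its best peak was not the same in all lists, as described below. The difference was -0.54 in G1E (exact p = 0.1) and -0.39 in G1E-ER4 (exact p = 0.2), and it stayed between -0.55 and -0.38 without any 1 library. In the fit across all regions with limma it did not pass after Benjamini-Hochberg adjustment (standard error 0.17, adjusted p = 0.0701). Between the lines the promoter differed by 0.22 on the log2 scale, with G1E-ER4 placed lower (exact permutation p = 0.095, limma adjusted p = 0.467). In the pooled lists that difference was 0.0053.

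The promoter region was made of parts that behaved differently, and they were separated after their values had been seen. Distances here are from the rounded start, so that those in bp serve to compare libraries and not to place a summit on the gene. A narrow peak, called the upstream site here, had its summit between 61815001 and 61815100 in every list, at -1999 to -1900 bp from the start. A broad peak covered the start in every list. In the 9 lists other than asynchronous G1E it was 4383 to 6141 bp wide and so spanned most of the gene, while in the asynchronous G1E lists it measured 6107, 917 and 1902 bp. Replicates 2 and 3 also had narrow peaks elsewhere, with median widths of 356 and 415 bp over the whole list, against 471 to 1192 bp in the other 10. Its summit lay from 31 to 257 bp after the start in 8 lists, 1676 to 1745 bp after it in asynchronous G1E-ER4 replicates 1 and 2 and mitotic G1E-ER4 replicate 2, and at -894 bp from it in mitotic G1E replicate 1.

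The upstream site was placed lower in G1E-ER4 lists. It ranked 7231, 7082 and 7091 in asynchronous G1E, and 5910, 13204 and 8891 in mitotic G1E. In G1E-ER4 it ranked 11543, 11652 and 12593 in asynchronous cells and 18411, 24548 and 16611 in mitotic cells. The lines did not overlap within either stage. G1E-ER4 lists placed it 1.92 times lower (log2 rank difference 0.94, exact permutation test, two-sided, p = 0.005), and the difference stayed between 0.80 and 1.09 without any 1 library. Mitotic lists placed it lower than asynchronous ones by 0.51 on the log2 scale (exact permutation p = 0.02), a call that was lost at p = 0.05 without any of 5 libraries (asynchronous G1E replicates 1, 2 and 3 and asynchronous G1E-ER4 replicates 1 and 2) and at p = 0.0625 with the replicate block.

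The peak over the start went the opposite way with stage. It ranked 8702, 25610 and 14123 in asynchronous G1E, and 4286, 4498 and 6085 in mitotic G1E, with no overlap. In G1E-ER4 it ranked as the whole promoter region did. Mitotic lists placed it higher by 0.99 on the log2 scale (exact permutation test, two-sided, p = 0.01). The difference was -1.58 in G1E (exact p = 0.1) and -0.39 in G1E-ER4 (exact p = 0.2), and these differed by 1.19 between the lines (exact permutation p = 0.035). The line itself gave -0.30 (exact p = 0.4). All 3 asynchronous G1E lists placed the upstream site above the peak over the start, and all 9 other lists placed it below. The part that the narrower asynchronous G1E peaks had in these ranks was not tested.

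**Figure D3:**
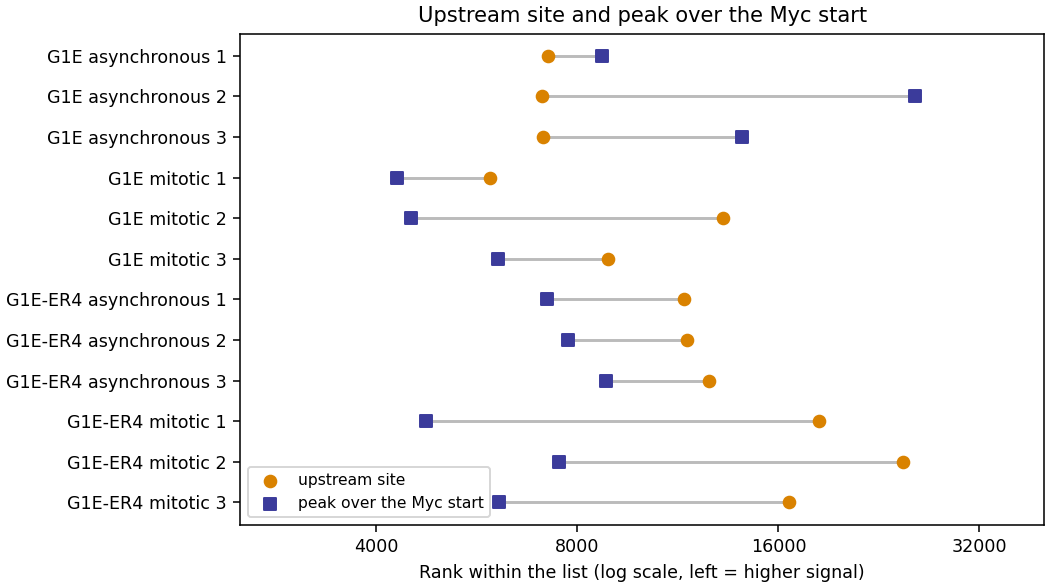
Rank within each library's list (horizontal axis, log scale, left is higher signal) of the upstream site (circles) and the peak over the Myc start (squares), joined by a line for each of the 12 libraries. The circle lies left of the square in the 3 asynchronous G1E libraries and right of it in the 9 others.

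The remaining region within 10 kb of the gene, chr15:61821995-61824416 at +6.5 kb (named after its values were seen), starts at the gene's end. It ranked 32458, 33251 and 46161 in asynchronous G1E and was listed in 1 library of each other group, at 95321 in mitotic G1E, 40629 in asynchronous G1E-ER4 and 68696 in mitotic G1E-ER4. It was called for stage in limma (log2 rank difference 0.84), a call lost in 7 of the 12 fits that left out a library. Fewer than 3 mitotic lists held it, so it reached the test only with asynchronous lists and the value is a description.

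The highest placed site of the window in asynchronous G1E cells lay not at the promoter but far downstream, at +173.6 kb. This region, chr15:61989474-61992463, ranked 3712, 187 and 418 in asynchronous G1E, and 6156, 3872 and 3712 in mitotic G1E. In G1E-ER4 it ranked 12083, 9320 and 9212 in asynchronous cells and 10990, 14199 and 12874 in mitotic cells. All 6 G1E libraries placed it above all 6 G1E-ER4 libraries. G1E-ER4 placed it 6.58 times lower on average (log2 rank difference 2.72, standard error 0.58, limma adjusted p = 0.0106), and every fit without 1 library kept that call. The difference by stage was 1.53 (limma adjusted p = 0.0831), and in G1E-ER4 the stages overlapped. The promoter outranked this site in mitotic G1E replicate 1 and in all 6 G1E-ER4 libraries.

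A pair of neighbouring regions further on was also found in all 12 lists. The region at +238.0 kb, chr15:62053706-62056836, ranked 13147, 5724 and 6328 in asynchronous G1E, and 20279, 13698 and 8009 in mitotic G1E. In G1E-ER4 it ranked 24714, 19676 and 20524 in asynchronous cells and 43664, 40070 and 90212 in mitotic cells. It was placed 3.38 times lower in G1E-ER4 (log2 rank difference 1.76, standard error 0.31, limma adjusted p = 0.00417). Its stage difference of 1.03 also passed (adjusted p = 0.0344), but that call was lost in 7 of the 12 fits that left out a library. The adjacent region at +235.8 kb, chr15:62044834-62053626, is a merger 8793 bp long of several peaks, and neither contrast passed there (limma adjusted p = 0.451 for stage and 0.279 for line).

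The far downstream stretch held a site with the same order of groups. The region at +1751.1 kb, chr15:63567532-63569222 (named after its values were seen), ranked 7568, 712 and 1566 in asynchronous G1E, and 55973, 8009 and 10100 in mitotic G1E. It ranked 50971, 24374 and 29914 in asynchronous G1E-ER4, and 64711, 75034 and below the limit in mitotic G1E-ER4. The asynchronous G1E libraries stood above all 9 others, and mitotic G1E replicates 2 and 3 stood above all G1E-ER4 libraries. The line difference was 3.14 on the log2 scale (standard error 0.60, limma adjusted p = 0.00639), the largest of the 58 regions, and the stage difference was 2.13 (adjusted p = 0.0273), a call lost in 5 of the 12 fits that left out a library. Both sizes are understated, since the absent peak was given the rank 100001.

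Close beside it were sites at which no line difference was detected. The region at +1755.3 kb, chr15:63571727-63572796, was in all 12 lists at ranks of 13243, 3643 and 8441 in asynchronous G1E, and 86989, 11144 and 16669 in mitotic G1E. In G1E-ER4 it ranked 14936, 11852 and 11510, then 15912, 13315 and 13214 in mitotic cells. Its log2 rank difference between the lines was -0.03 with a standard error of 0.47 (limma adjusted p = 0.975). The region at +1786.3 kb, chr15:63602781-63603703, was also in all 12 lists, at ranks from 14178 to 75018, with a difference of -0.50 and a standard error of 0.37 (adjusted p = 0.458). Their summits stayed in place from library to library, with an SD of 18.9 bp at the first and 17.1 bp at the second. The lone region at +951.0 kb in the middle of the empty interval, chr15:62767825-62768252, was alike in this, with a summit SD of 7.27 bp, a length of 428 bp and a peak in 11 of 12 lists at ranks from 10078 to 68178. Its differences were 0.58 by stage and -0.59 by line (standard error 0.47 in each, limma adjusted p = 0.419 and 0.493).

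In limma 21 of 58 regions (36.2%) changed with stage at an adjusted p under 0.05, all placed lower in mitotic lists. Of all regions tested 21.8% were called for stage, 14.7% placed lower in mitosis and 7.11% higher. The median log2 rank difference was 0.52 over the window regions and -0.02 over all regions. Of the 21 regions, 9 had no listed peak in any of the 6 mitotic lists. Regions that reach 3 lists only with the asynchronous G1E libraries were bound to lean that way, and 10 of the 21 had fewer than 3 lists outside that group, as did 22 of the 58 regions tested. The other 11 reached 3 lists without it. Some of these still reached 3 lists only with asynchronous lists, among them +6.5, +205.7, +1667.3 and +1745.5 kb, so their direction was favoured too. With a peak required in at least 6 lists, 10 of 27 window regions were called, all placed lower. Of all regions in that fit, 18216 of 56938 were called, 10697 of them placed lower, so the window then lay closer to the genome. The promoter region was called as placed higher in mitosis in the fits without mitotic G1E replicate 3 and without mitotic G1E-ER4 replicate 2, beside 20 regions placed lower in each.

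In the contrast of the lines, G1E-ER4 lists placed 16 of 58 regions (27.6%) lower and none higher. Of all regions tested 12% were called for line, made up of 6.9% placed lower and 5.06% placed higher. At an unadjusted p under 0.05 there were 21 window regions in either direction. The median difference was 0.36 in the window and -0.01 over all regions. Of the 16, 9 had no listed peak in any G1E-ER4 list, and 10 had fewer than 3 lists outside asynchronous G1E, so that 6 reached 3 lists without it. Among these 6, +1663.0 and +1673.0 kb still reached 3 lists only with G1E, so their direction was favoured too. Without asynchronous G1E-ER4 replicate 1, 1 region (at +126.9 kb, named after its values were seen) was called as placed higher in G1E-ER4 and 15 as placed lower. The region at +126.9 kb was listed in G1E-ER4 alone, so its direction was fixed as well. With a peak required in at least 6 lists, 7 of 27 window regions were called, all placed lower. Of all regions in that fit, 7918 of 56938 were called, 3548 of them placed lower. Stage and line were called together at 14 regions, stage alone at 7 and line alone at 2 (+173.6 and +1673.0 kb). The stage and line differences come from the same 12 libraries, and the asynchronous G1E group enters both.

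**Figure D4:**
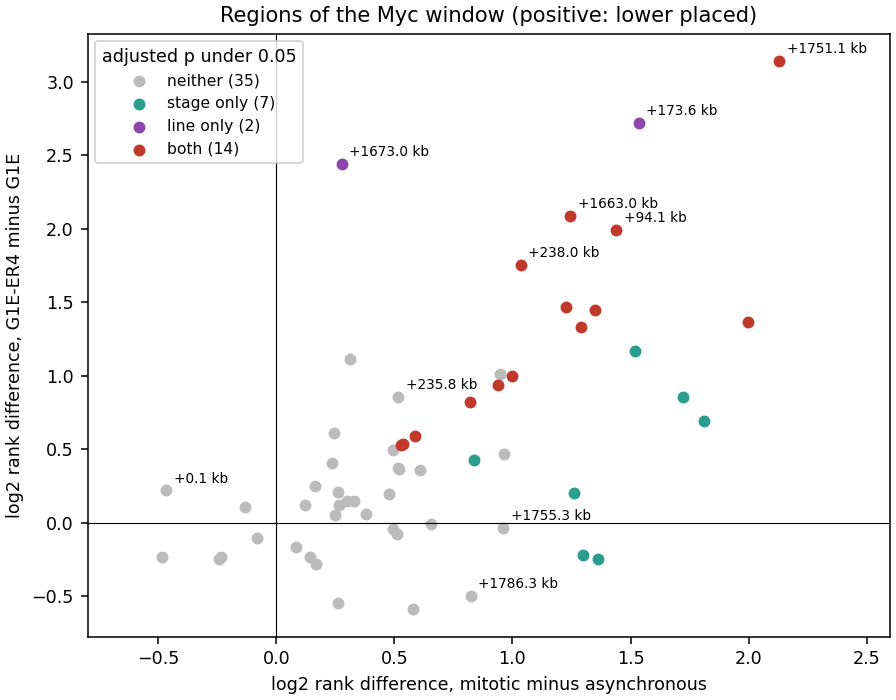
log2 rank difference of the 58 regions by stage (horizontal axis, mitotic minus asynchronous) and by line (vertical axis, G1E-ER4 minus G1E), where positive means placed lower in mitotic or in G1E-ER4 lists. Colours give which contrasts passed an adjusted p of 0.05, all 23 coloured regions lie right of 0, and the promoter region at +0.1 kb lies left of 0.

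Within G1E, mitotic cells placed 19 of 58 regions lower (17.1% of all regions called, 11.2% placed lower and 5.95% higher). Of these, 11 had fewer than 3 lists outside asynchronous G1E, and the count fell to 8 without asynchronous G1E replicate 2, to 10 without replicate 3 and to 8 of 27 with at least 6 lists. Over all regions the calls in these 3 fits were 9231 of 96769, 9637 of 96433 and 11969 of 56938, against 17749 of 103666 in the main fit. Within G1E-ER4 limma called none of the 58 (6.02% of all regions called, 4.83% placed lower and 1.19% higher). In G1E-ER4 there were 7 window regions at an unadjusted p under 0.05, and alternative settings gave 0 to 3 calls. Between the asynchronous groups 17 regions were placed lower in G1E-ER4 (12.7% of all called, 7.7% placed lower and 4.96% higher). Again 11 of them had fewer than 3 lists outside asynchronous G1E, and the count was 10 without asynchronous G1E replicate 2 or replicate 3 and 6 of 27 with at least 6 lists. Over all regions these fits called 6202 of 96769, 6386 of 96433 and 5943 of 56938, against 13124 of 103666 in the main fit. Between the mitotic groups 2 regions were placed lower in G1E-ER4 (1.68% of all called, 0.818% placed lower and 0.866% higher), those at +94.1 and +238.0 kb, and 8 of the 58 had an unadjusted p under 0.05. That count ranged from 0 to 3 without 1 library and was 0 with a mean-variance trend, where 7 had an unadjusted p under 0.05. The stage difference was itself called as different between the lines at 10 regions (2.94% of all regions called, 2.32% in the direction of these 10 and 0.615% in the other). Of these, 9 had fewer than 3 lists outside asynchronous G1E and so reached the test only with that group. At 8 of the 10 no G1E-ER4 list had a peak, so that the stage difference in that line was set to 0 by the limit of the lists and the direction was fixed by it. A direction can therefore not be read from these calls, and limma called none with a peak required in at least 6 lists (4 at an unadjusted p under 0.05) or with a mean-variance trend (15 at an unadjusted p under 0.05). Both of those fits also called none of all regions tested (0 of 56938 and 0 of 103666), so that loss was not particular to the window.

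Regions held by all 3 lists of a group were most frequent in asynchronous G1E. These were 39 of the 58 (67.2%), against 39.3% of all regions tested. Among the 58, 22 reached 3 lists only with the asynchronous G1E libraries, which raises this share. Asynchronous G1E-ER4 held 20 of the 58 in all 3 lists (39.9% of all regions), mitotic G1E 14 (33.7%) and mitotic G1E-ER4 8 (32.5%). Of the 39 regions of asynchronous G1E, the mitotic G1E lists had 19, 20 and 24, the asynchronous G1E-ER4 lists 24, 20 and 24, and the mitotic G1E-ER4 lists 12, 16 and 14. Mitotic G1E-ER4 thus held the fewest of them in each library. Regions chosen in the same way over the whole genome were not counted, so this order is not shown to be particular to the window.

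**Figure D5:**
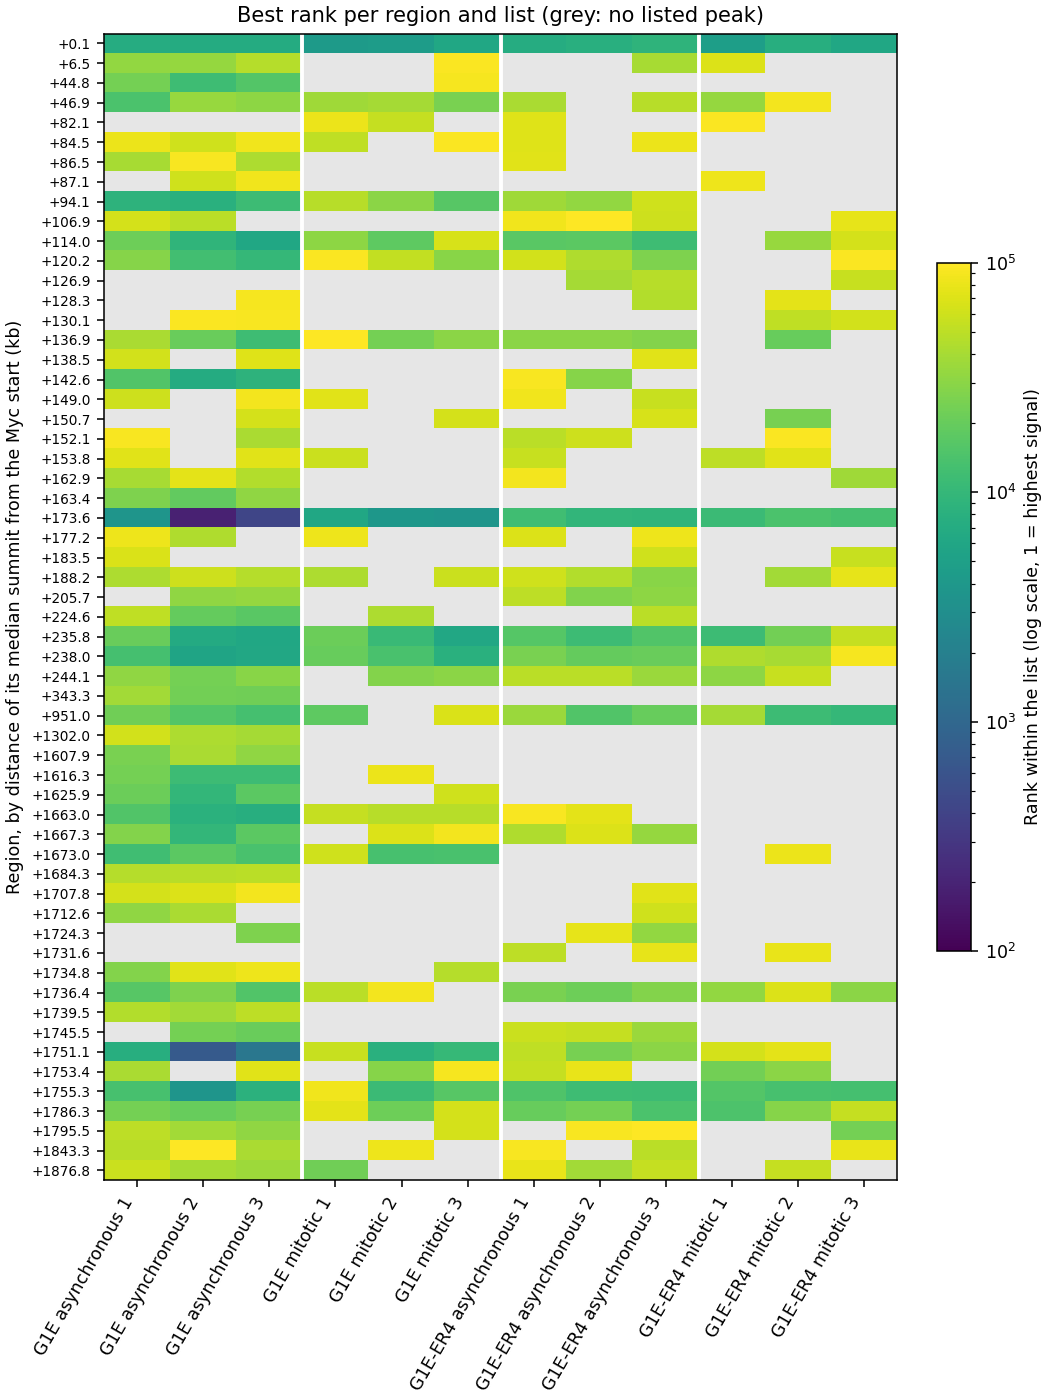
Rank within each list (colour, log scale, grey where no peak is listed) of the 58 regions with a peak in at least 3 lists, ordered by distance from the Myc start (vertical axis, kb), in the 12 libraries (columns). The 6 rows filled in every column include the promoter at +0.1 kb and the site at +173.6 kb, and the 3 asynchronous G1E columns are the fullest, with 39 regions in all 3.

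Some regions were in every list of one group and in none of another. In all 3 asynchronous and no mitotic G1E list were 10 of the 58 regions (17.2%, against 7.6% of all regions tested), and none had the reverse pattern (5.6% of all regions). The 5 highest placed lay at +142.6, +163.4, +343.3, +1607.9 and +1739.5 kb. In G1E-ER4 the pattern held for 4 regions (6.9%, against 4.84% of all regions), at +205.7, +94.1, +1667.3 and +1745.5 kb, and the reverse for none (1.08%). All 3 asynchronous G1E lists and no asynchronous G1E-ER4 list held 11 of the 58 regions, against 5.5% of all regions. The 5 highest placed lay at +1673.0, +1616.3, +1625.9, +44.8 and +163.4 kb. The reverse held for none of the 58 (5.02% of all regions). Mitotic G1E differed from mitotic G1E-ER4 in this way at 2 regions (3.45%, against 1.49% of all regions), +94.1 and +1663.0 kb, with none in reverse (1.37%). The counts of 4 and 2 regions are small, and no window share was tested against that of all regions. Leaving out a library raised the first count to as many as 18, the second to 7, the third to 17 and the last to 4. Held by all 3 asynchronous G1E lists and by none of the other 9 were 6 regions (10.3%, against 3.44% of all regions), at +163.4, +343.3, +1302.0, +1607.9, +1684.3 and +1739.5 kb. These 6 reached the minimum of 3 lists through asynchronous G1E alone. As 22 of the 58 regions reached it only with that group, the shares of regions held by all its lists are descriptions.

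Among the near sites, the one at +44.8 kb was almost confined to asynchronous G1E. This region, chr15:61861103-61862163, ranked 23425, 11660 and 15573 there, and its one other listed peak was in mitotic G1E replicate 3 at 91203. The region at +142.6 kb, chr15:61959072-61959807, ranked 15160, 6962 and 8682 in asynchronous G1E, was in no mitotic list of either line, and ranked 94285 and 28610 in asynchronous G1E-ER4 replicates 1 and 2. Both sites had fewer than 3 lists outside asynchronous G1E, so these ranks are a description and no test of stage or line is given. The SD of their summit positions over the lists that held them was 10.3 and 6.57 bp.

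The region at +94.1 kb, chr15:61910369-61912046, fell in steps over the groups. It ranked 8637, 8016 and 11469 in asynchronous G1E, 47648, 29968 and 16704 in mitotic G1E, and 37852, 33040 and 60556 in asynchronous G1E-ER4, and it was in no mitotic G1E-ER4 list. Mitotic G1E and asynchronous G1E-ER4 overlapped. It passed for stage (1.44, standard error 0.26, limma adjusted p = 0.00299) and for line (1.99, standard error 0.26, adjusted p = 9.43e-04), and no fit without 1 library lost either call.

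In the far stretch, sites about 10 kb or less apart followed different patterns. The region at +1663.0 kb, chr15:63479068-63481086, ranked 15442, 8348 and 7617 in asynchronous G1E and 54407, 47363 and 48060 in mitotic G1E. It ranked 93387 and 76346 in asynchronous G1E-ER4 replicates 1 and 2 and was in no other G1E-ER4 list. The G1E groups did not overlap each other or G1E-ER4. Fewer than 3 G1E-ER4 lists held it, so it reached the test only with G1E, where it is placed high. Its line difference of 2.09 is therefore a description, and no test of line is given. The stage difference was 1.24 (limma adjusted p = 0.00138). The region at +1667.3 kb, chr15:63483929-63484532, was called for stage only. It ranked 27763, 9700 and 17423 in asynchronous G1E and 43542, 68840 and 33359 in asynchronous G1E-ER4, and it was listed in mitosis in G1E replicates 2 and 3 alone, at 68637 and 88723. It thus reached the test only with asynchronous lists, so its stage difference of 1.72 is a description and no test of stage is given. The line difference of 0.85 was near the threshold (limma adjusted p = 0.0647).

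The region at +1673.0 kb, chr15:63489125-63490646, had the opposite pattern and was called for line only. It ranked 12008, 17366 and 13887 in asynchronous G1E and 60679, 13220 and 13755 in mitotic G1E, so that those groups overlapped. In G1E-ER4 it was listed once, at 82764 in mitotic replicate 2. It reached the test only with G1E, where it is placed high, so its line difference of 2.44 is a description and no test of line is given. All fits that left out 1 library kept the line call, but it entered each of them only with G1E. The stage difference was 0.28 (standard error 0.34, limma adjusted p = 0.601).

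Further sites of this stretch were listed almost only in asynchronous G1E. The region at +1616.3 kb, chr15:63433073-63434373, ranked 23366, 11258 and 11253 there and otherwise 81055 in mitotic G1E replicate 2. The region at +1625.9 kb, chr15:63442441-63443166, ranked 21429, 9730 and 17578 there and otherwise 60415 in mitotic G1E replicate 3. Neither was in any G1E-ER4 list. Both reached the test only through asynchronous G1E, so no test of stage or line is given for them.

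Sites of asynchronous cells were found less often in mitotic lists than in a left-out asynchronous list. Of the window regions shared by 2 asynchronous G1E lists, 47 for each choice, the remaining asynchronous list held 83.0% in each case, and the mitotic G1E lists held 45.9% ± 5.13 (SD, n = 3). The left-out shares of a line all count the regions common to its 3 lists, so their spread is not one between independent libraries. In G1E-ER4, with 23 to 26 regions, the left-out lists held 76.9% to 87.0% (mean 82.4%) and the mitotic lists 53.5% ± 9.58 (SD, n = 3). The gap was 33.0 points for the lines together (two-sided exact permutation p = 0.0025, the smallest it allows), 37.1 in G1E and 28.9 in G1E-ER4 (exact p = 0.05 in each, the smallest for 1 line). Over all regions of the genome the gaps were 23.6 and 14.5 points and 19 for the lines together, from 61.4% and 70.2% recovered in mitotic lists. The difference between the window's gap and that of the genome was not tested.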

How the data were processed

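The deposited files are headerless peak lists, 12 from single libraries and 4 that the authors made from pooled replicates. Each line gives a position, a summit offset and a signal per peak, in the authors' own scale, with an unstated normalization. Bowtie and mm9 are named in the submitters' processing notes, while a peak caller is not given in the sources used here. Per the labels, cells were lightly fixed with formaldehyde, and 3 DNase I concentrations per condition were used. The deposited lists stop at exactly 100000 peaks in order of signal, so depth and counting intervals could not be given, and no 2 lists were identical.

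Peaks on 19 autosomes and X were merged into regions (minimum overlap 1 bp). Single values were compared by two-sided exact permutation tests with labels exchanged within the other factor. Region ranks (log2 of the best rank, 100001 where absent) were fitted for all regions in at least 3 lists with limma 3.58.1 in R 4.3.3 on 4 group means, with Benjamini-Hochberg adjustment over all of them and a threshold of 0.05. Positive differences mean placed lower. Other steps used Python 3.11.15 (pandas 2.3.3, scipy 1.17.1), and the tests were checked on simulated data.

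The regions named are the promoter region, those in all 12 lists, those called in a contrast (at most the 10 with the smallest adjusted p) and, for each pair of groups, the 5 best placed of those in all 3 lists of one and none of the other. Regions outside this rule, counted as 5 or fewer or singled out, are said to be so. The window, the rule and the tests were chosen with earlier results of these data known. The alternatives tried were 300 bp around summits, covered bases, the 50000 highest peaks, each library left out in turn, other list minimums (2 and 6), an absent rank of 200000, a mean-variance trend, a replicate block and the pooled lists. The split of the promoter region was added after seeing the data. Replicate numbers were not taken as pairs, because not every same-numbered pair had deviations correlated above 0.1.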

Additional observations from a re-analysis of the deposited data

Results flagged for a closer look

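At 11 places a test called the difference between mitotic and asynchronous lists as unequal in the 2 lines (log2 rank scale, G1E-ER4 minus G1E). For the peak over the Myc start the difference between lines was 1.19 (exact permutation p = 0.035). That peak was separated from the rest of the promoter region after its values had been seen, and in asynchronous G1E replicates 2 and 3 it was 917 and 1902 bp wide, against 4383 to 6141 bp in the 9 lists of the other groups. The other 10 regions were called by limma, but 9 of them, all except +1663.0 kb, had fewer than 3 lists outside asynchronous G1E. Those 9 entered the fit only through that group, so their values are a description and no evidence of a difference between the lines. The values were -2.58 at +44.8 kb, -2.73 at +142.6 kb, -2.0 at +163.4 kb and -1.88 at +343.3 kb. In the far stretch they were -1.64 at +1607.9 kb, -2.70 at +1616.3 kb, -2.45 at +1625.9 kb, -2.16 at +1663.0 kb, -1.06 at +1684.3 kb and -1.18 at +1739.5 kb. In 8 of these 10 regions no G1E-ER4 list had a peak, the exceptions being +142.6 and +1663.0 kb, so the stage difference in that line could not be measured there and the sign of these values was fixed by the limit of the lists. The call was lost in 9 of 9 settings without 1 library at +1684.3 kb and at +1739.5 kb and in 10 of 12 at +142.6 kb, and in 2 of 12 at +1663.0 kb.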

How the results depend on the processing

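In the exact tests the fewer window peaks in mitotic lists, the higher best rank of the promoter region in mitotic lists and the recovery gap kept direction and side of the threshold under every alternative run (the pooled lists allow no test). Their ranges without 1 library were -37.3 to -32.8 peaks, -0.55 to -0.38 and 29.8 to 35.4 points. In limma the promoter region did not pass for stage in the main fit but did in 2 fits without 1 library. Its best peak was the upstream site in the 3 asynchronous G1E lists and the peak over the start in the 9 others, and the upstream site by itself was placed lower in mitotic lists. The line difference in window peaks was no longer past 0.05 with the replicate block (-20.7, exact permutation p = 0.125) and in 3 of 12 settings without 1 library, and it ranged from -23.3 to -18.8. The line difference at the promoter was 0.0053 in the pooled lists. Regions called for stage were 21, 10 with at least 6 lists and 12 to 21 without 1 library, and 22 with the replicate block. For line they were 16, 7 with at least 6 lists, 10 to 16 without 1 library and 17 with the block. For the difference between lines they were 10, 0 with at least 6 lists, 0 with the mean-variance trend, 1 to 8 without 1 library and 8 with the block. The settings with 0 window calls also called 0 of all regions (of 56938 and of 103666). The lowest counts came without an asynchronous G1E library: 16, 12 and 13 for stage, 13, 10 and 10 for line, and 6, 2 and 1 for the difference between lines, in the order of replicates 1, 2 and 3, where 48 to 50 regions were left to test. Calls over all regions fell in the same fits, from 22647 to 19128, 16701 and 16725 for stage. They fell from 12398 to 10336, 7616 and 7531 for line, and from 3047 to 1423, 265 and 247 for the difference between lines. The region at +1302.0 kb was listed only in the 3 asynchronous G1E libraries, so it reached the test through that group and its direction was fixed by the limit of the lists. Its call for line was lost in each of the 9 settings without 1 library in which it could be fitted. No result reversed under the alternatives run, though the promoter region was called as placed higher in mitotic lists in 2 fits for stage. A different region, at +126.9 kb, was called as placed higher in G1E-ER4 in 1 fit for line. Same-numbered libraries had correlated deviations of -0.03 to 0.25 (median 0.11, over 0.1 in 10 of 18 pairs), and differently numbered ones a median of -0.08 (over 0.1 in 6 of 36). All 6 pairs of replicate 1 lay at 0.14 to 0.25. The numbers were not taken as pairs because not every same-numbered pair exceeded 0.1. A promoter rank from summits within 500 bp of the median promoter summit was not run, since some lists have no summit there. The limit of 100000 peaks sets the smallest difference that can be seen: a site just below it counts as absent, and sizes at absent sites are understated. All absent peaks were given the same rank, so a group without a listed peak shows no spread. Standard errors and adjusted p-values at such sites may therefore be too small.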
